A study of Mus musculus with 6 samples.

Results

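The miR-125 family was examined among the short RNAs bound to Argonaute (Ago) proteins in mouse brain. Its members here were the sequences that the deposited annotation assigns to mmu-miR-125a-5p, mmu-miR-125b-5p, mmu-miR-125a-3p, mmu-miR-125b-1-3p or mmu-miR-125b-2-3p. These 5 mature miRNAs were 5 of the 782 detected, and their 393 sequences were part of 18305 sequences with a miRNA name and of 65087 sequences in all. mmu-miR-125b-5p had 212 sequences, mmu-miR-125a-5p had 100, mmu-miR-125b-2-3p had 41, mmu-miR-125b-1-3p had 25 and mmu-miR-125a-3p had 15.

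The libraries came from 3 wild type control mice (WT) and 3 mice labelled Tau fragment tg (Tau tg), in which a piece of human tau, the protein that aggregates in tauopathies, is expressed as a transgene. Per the study's methods, all were male and 3 months old, and the transgene was driven by the Thy 1.2 promoter, which is active in neurons, on a C57BL/6 J background. The comparison asks which short RNAs are loaded into the RNA-induced silencing complex (RISC) in a tau model with neuronal death. The sample labels and the study's own results text name the hippocampus for these mice. The general protocol for mouse brain pieces describes cortex and hippocampus together.

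Levels are given as RPM, for which the authors scaled the reads to each library's size. The libraries held between 998248 and 6879551 reads, of which 82.7 to 92.4% of RPM had a miRNA name, and Tau tg 1 was the deepest. The 4 miRNAs fixed as neuron markers summed to 140317 to 158895 RPM in every sample, so the neuronal source was visible in both groups. Lists for oligodendrocytes, leukocytes, vessels, red blood cells and the pituitary overlapped between the groups. The 4 markers of choroid plexus or ependyma did not overlap, with sums of 1622, 4699 and 6509 RPM in WT 1, WT 2 and WT 3 and of 1133 to 1412 RPM in the Tau tg samples. None of these markers was at 0 in any sample. Of the 4, 3 had an unadjusted limma p under 0.05, compared with 25 or 3.63% of all 689 miRNAs tested. After adjustment 0 of the 689 had a p under 0.05. The part of this difference in the results below was not tested.

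miR-125 is the vertebrate relative of lin-4, the founding miRNA of the nematode timing pathway. Its hairpins are cut into a 5p arm, which is the arm mostly kept by Ago, and a 3p arm, which is mostly discarded. A miRNA recognises its targets mainly through its seed, the bases just after its first one, so arms and shifted ends of one hairpin have different targets. In the brain, miR-125b is abundant in neurons and in glia and is known for roles in neuronal differentiation and in dendritic spines.

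The RefSeq mature sequences are shown first because the seed separates the arms. Capitals mark bases 2 to 8.
mmu-miR-125a-5p: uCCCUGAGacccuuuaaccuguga
mmu-miR-125b-5p: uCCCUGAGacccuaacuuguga
mmu-miR-125a-3p: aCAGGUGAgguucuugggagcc
mmu-miR-125b-1-3p: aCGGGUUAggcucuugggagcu
mmu-miR-125b-2-3p: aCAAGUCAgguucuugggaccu

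Both 5p members carried the same seed and shared their first 13 bases. The shortest member read was 18 nt long, so every read extended past the shared stretch. The 3p members differed from each other in the seed. The mature mmu-miR-125b-5p is made identically by a pair of genes, and its reads could not be divided between them. The 3p arms can be told apart.

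On GRCm38, with GENCODE M21 annotation, Mir125a lies at chr17:17830812-17830879 on the plus strand, in an exon of the protein-coding gene Spaca6. Mir125b-1 lies at chr9:41581926-41582002 on the plus strand, in introns of the noncoding genes 3110039I08Rik and Gm49317 and in an exon of Gm28119. Mir125b-2 lies at chr16:77646273-77646343 on the plus strand, in an intron of the noncoding gene Mir99ahg and in an exon of C130023A14Rik. Mir125a sits close to its partners, 368 bp from Mirlet7e and 555 bp from Mir99b. Mir125b-1 and Mir125b-2 are farther from theirs, at distances of 45115 to 50422 bp.

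The 5p arms made up nearly all of the family, and mmu-miR-125b-5p was the most abundant member in every sample. It ranked 8 among all miRNAs by mean RPM and held 2.80% of miRNA RPM. mmu-miR-125a-5p ranked 37, mmu-miR-125b-2-3p 168, mmu-miR-125b-1-3p 273 and mmu-miR-125a-3p 336. This order of the 5 members held in 6 of 6 samples. The lowest neighbours came closest in WT 3, where mmu-miR-125b-1-3p had 52 reads and mmu-miR-125a-3p had 49 reads.

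**Figure D1:**
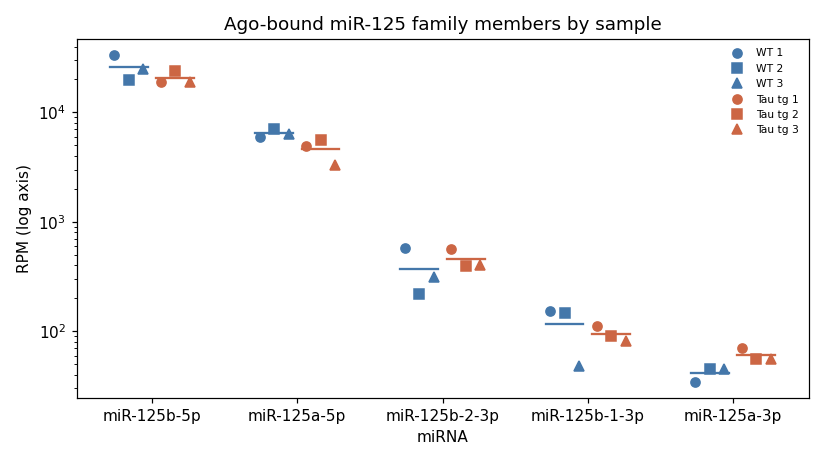
RPM of each member in each sample on a log axis, with WT in blue, Tau tg in orange, 1 point per sample and a line at each group mean. The order of the members is the same in all 6 samples, and the groups separate for miR-125a-5p (WT 5907 to 7030.2 RPM, Tau tg 3307 to 5559.8 RPM) and for miR-125a-3p (WT 34.7 to 44.95 RPM, Tau tg 55.2 to 70.6 RPM).

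mmu-miR-125a-5p stood at 5907, 7030.2 and 6372 RPM in WT 1, WT 2 and WT 3. It stood at 4975, 5559.8 and 3307 RPM in Tau tg 1, Tau tg 2 and Tau tg 3. Every Tau tg sample was below every WT sample, and Tau tg 3 was the lowest. The means of WT and Tau tg were 6436 ± 564 and 4614 ± 1169 RPM (SD, n = 3 each), a ratio of 0.717. The limma difference was −0.51 ± 0.31 (SE) on the log2(RPM + 1) scale, with a 95% interval of −1.17 to 0.14, an unadjusted p of 0.118 and an adjusted p of 0.896. The median miRNA was 0.246 higher in Tau tg on this scale, and relative to it the difference was −0.76. That median depended on the processing. It was 0.0898 under median-of-ratios scaling, 0.147 with a mean of at least 10 RPM and 0.342 without WT 1. Without Tau tg 3 the difference of mmu-miR-125a-5p was −0.29. Its unadjusted p was sensitive to scaling. It was 0.0381 under median-of-ratios scaling and 0.0442 with DESeq2 on recovered reads, both unadjusted, and no setting brought the adjusted p of any member under 0.05.

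mmu-miR-125b-5p stood at 33327, 19844 and 24779.7 RPM in WT 1, WT 2 and WT 3. It stood at 18912, 23762 and 19038 RPM in Tau tg 1, Tau tg 2 and Tau tg 3. The groups overlapped, and WT 1 was the highest sample. The means of WT and Tau tg were 25984 ± 6822 and 20571 ± 2765 RPM (SD, n = 3 each). The limma difference was −0.31 ± 0.32 (SE, log2), with a 95% interval of −1.001 to 0.38 and an adjusted p of 0.896. Its unadjusted p was 0.350 here and 0.0169 after quantile normalization. The difference was −0.12 without WT 1 and −0.49 without WT 2.

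The 3p arms were much rarer than the 5p arms in every sample. mmu-miR-125a-3p had 34.7, 44.7 and 44.95 RPM in WT 1, WT 2 and WT 3 and 70.6, 55.2 and 55.2 RPM in Tau tg 1, Tau tg 2 and Tau tg 3. Here the direction was opposite to that of its 5p arm, and again the groups did not overlap. The means were 41.4 ± 5.88 and 60.3 ± 8.87 RPM (SD, n = 3 each), a ratio of 1.46. The limma difference was 0.53 ± 0.64 (SE, log2), with a 95% interval of −0.84 to 1.90, an unadjusted p of 0.422 and an adjusted p of 0.896.

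The 3p arms of miR-125b did not separate the groups. mmu-miR-125b-2-3p had 577, 219.5 and 315 RPM in WT 1, WT 2 and WT 3 and 559, 396 and 406 RPM in Tau tg 1, Tau tg 2 and Tau tg 3, with a limma difference of 0.39 ± 0.41 (SE, log2) and an adjusted p of 0.896. Single libraries moved this difference. It was 0.77 without WT 1, 0.07 when WT 2 was left out and 0.23 when Tau tg 1 was left out. mmu-miR-125b-1-3p had 154, 146 and 47.7 RPM in the WT samples and 112, 90.3 and 81.8 RPM in Tau tg 1, Tau tg 2 and Tau tg 3. Its limma difference was −0.13 ± 0.58 (SE, log2) with an adjusted p of 0.968. WT 3 was the lowest sample of this member, and the Tau tg samples lay between it and WT 2. The direction of its difference turned when WT 1 or WT 2 was left out, to 0.16 and 0.13.

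Over all 689 miRNAs tested with limma, 25 or 3.63% had an unadjusted p under 0.05, and 0 or 0% had an adjusted p under 0.05. None of the 5 members was among the 25. After adjustment edgeR also called 0 miRNAs, and DESeq2 called 5, with no member among them. Groups that do not overlap were seen for 45 of the 472 miRNAs above 0 in all samples, or 9.53%, against 2 of the 5 members. In bulk tissue, fewer cells of a type and less of a miRNA per cell cannot be told apart.

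The family summed to 39999, 27285 and 31559 RPM in WT 1, WT 2 and WT 3. In Tau tg 1, Tau tg 2 and Tau tg 3 it summed to 24629, 29864 and 22887 RPM. The groups overlapped, since Tau tg 2 exceeded WT 2. The difference of the means was −7154 RPM, with a p of 0.2 in an exact two-sided permutation test, where 0.1 is the smallest p that 3 against 3 samples allow. Without WT 1 the difference was −3628 RPM. As a share of miRNA RPM the family held 4.09 ± 0.557% in WT, compared with 2.998 ± 0.457% in Tau tg (SD, n = 3 each). The exact permutation p was again 0.2.

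The arms of miR-125a had group means that differed in opposite directions, and their balance separated the groups. Of all reads of its arms, the 3p arm took 0.583%, 0.632% and 0.701% in WT 1, WT 2 and WT 3. It took 1.40%, 0.983% and 1.64% in Tau tg 1, Tau tg 2 and Tau tg 3. This share uses reads of a single hairpin within a library, so no scaling between libraries enters it. The share was thus 0.639 ± 0.0588% in WT and 1.34 ± 0.334% in Tau tg (SD, n = 3 each), 2.10 times as large, and all 3 Tau tg samples lay above all 3 WT samples. The exact two-sided permutation p was 0.1, the smallest possible, and 0.969 after Benjamini-Hochberg adjustment over 14 share and length measures.

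The 3p arm had 49 to 74 reads in the WT samples and 496, 66 and 135 reads in Tau tg 1, Tau tg 2 and Tau tg 3. The 95% Wilson intervals were 0.465 to 0.732% in WT 1, 0.497 to 0.803% in WT 2 and 0.530 to 0.925% in WT 3. They were 1.28 to 1.53% in Tau tg 1, 0.773 to 1.25% in Tau tg 2 and 1.39 to 1.94% in Tau tg 3. Only the interval of Tau tg 2 reached into those of WT 2 and WT 3. These intervals cover counting error only.

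The same share was taken for the rarer arm of every hairpin as a background. Of 137 hairpins with both arms above 0 in all samples, 11 or 8.03% had a rarer arm whose share was higher in Tau tg without overlap of the groups. miR-125a was 1 of these. For 6 other hairpins the share was lower in Tau tg without overlap. The median log2 ratio of the share over the 137 hairpins was 0.09, compared with 1.07 for miR-125a. A ratio at least as large was found for 15 of the 137, miR-125a included.

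For miR-125b the 3p arms together took 2.14%, 1.81% and 1.44% in WT 1, WT 2 and WT 3 and 3.43%, 2.01% and 2.50% in Tau tg 1, Tau tg 2 and Tau tg 3. The means were 1.80 ± 0.352% and 2.64 ± 0.722% (SD, n = 3 each). WT 1 exceeded Tau tg 2, and the exact permutation p was 0.2. The difference of 0.846 percentage points was 0.454 without Tau tg 1.

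**Figure D2:**
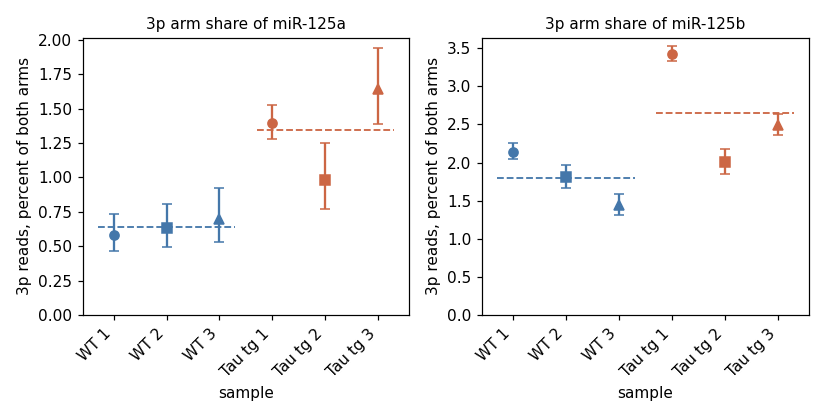
Share of 3p reads among the reads of both arms of miR-125a (left) and miR-125b (right), in percent, with 1 point per sample, 95% Wilson intervals as bars and dashed lines at the group means. For miR-125a the WT samples lie at 0.583 to 0.701% and the Tau tg samples at 0.983 to 1.64%, while for miR-125b WT 1 at 2.14% lies above Tau tg 2 at 2.01%.

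The balance of the paralogs did not separate the groups. mmu-miR-125a-5p made up 15.1%, 26.2% and 20.5% of the 5p reads in WT 1, WT 2 and WT 3 and 20.8%, 18.96% and 14.8% in Tau tg 1, Tau tg 2 and Tau tg 3. The difference of the means was −2.36 percentage points (exact permutation p = 0.6). Among the miR-125b 3p reads, mmu-miR-125b-2-3p made up 78.96% in WT 1, 86.8% in WT 3 and 81.4 to 83.3% in the Tau tg samples. In WT 2 it had fewer, with 324 of 540 reads. The difference was 7.40 percentage points (exact permutation p = 0.6). WT 2 was the sample farthest from the rest in both measures.

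The reads bound to Ago were often not the reference form. The sequences below are the 3 leading isoforms of each 5p member as sequenced, with bases 2 to 7, the 6mer seed, in capitals, followed by the main isoform of mmu-miR-125b-5p with a shifted start.
miR-125a-5p, 22 nt: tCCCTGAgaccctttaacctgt
miR-125a-5p, 23 nt: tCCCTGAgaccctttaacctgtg
miR-125a-5p, 24 nt: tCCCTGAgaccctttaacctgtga
miR-125b-5p, 22 nt: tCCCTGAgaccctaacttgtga
miR-125b-5p, 21 nt: tCCCTGAgaccctaacttgtg
miR-125b-5p, 20 nt: tCCCTGAgaccctaacttgt
miR-125b-5p, shifted start: cCCTGAGaccctaacttgtga

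For mmu-miR-125a-5p, the 24 nt RefSeq form held only 14.4% of the member's mean RPM. The 22 nt form, which lacks its last bases, held 47.5%, and the 23 nt form held 26.03%. The 22 nt form had 2645, 3608 and 3223 RPM in WT 1, WT 2 and WT 3 and 1882, 3002 and 1376 RPM in Tau tg 1, Tau tg 2 and Tau tg 3. Tau tg 2 exceeded WT 1, so the groups overlapped, and the limma difference was −0.66 ± 0.40 (SE, log2) with an unadjusted p of 0.0975 and an adjusted p of 0.584. The 23 nt and 24 nt forms had differences of −0.43 ± 0.43 and −0.46 ± 0.47 (SE, log2). Without single samples the 3 differences ranged from −0.96 (without Tau tg 2) to −0.40 (without Tau tg 3), from −0.76 (without Tau tg 1) to −0.19 (without Tau tg 2) and from −0.81 (without Tau tg 2) to −0.27 (without Tau tg 3).

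For mmu-miR-125b-5p, the 22 nt RefSeq form was the leading read with 57.3% of the member. The 21 nt form held 22.7% and the 20 nt form held 9.31%. Their limma differences were −0.33 ± 0.32, −0.19 ± 0.36 and −0.60 ± 0.41 (SE, log2), each with an adjusted p of 0.584 or above. Without single samples they ranged from −0.70 (without WT 2) to −0.03 (without WT 1), from −0.47 (without Tau tg 1) to −0.03 (without Tau tg 3) and from −1.03 (without Tau tg 2) to −0.27 (without Tau tg 3).

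The length of mmu-miR-125b-5p varied between individual samples and not between the groups. The 21 nt form stood at 0.267, 0.794 and 0.273 times the 22 nt form in WT 1, WT 2 and WT 3. The same ratio was 0.836, 0.293 and 0.315 in Tau tg 1, Tau tg 2 and Tau tg 3. WT 2 and Tau tg 1 thus stood apart from the other 4 samples by at least 2.52-fold. This ratio was chosen after the values had been seen.

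**Figure D3:**
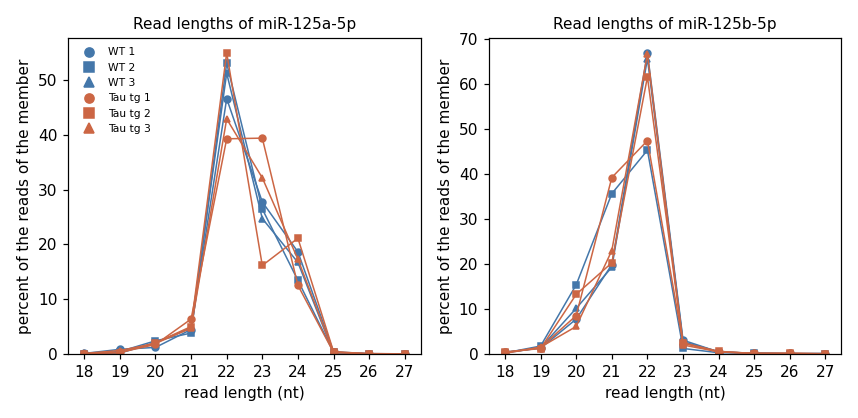
Share of each member's RPM by read length from 18 to 27 nt for miR-125a-5p (left) and miR-125b-5p (right), with 1 line per sample. For miR-125b-5p, WT 2 and Tau tg 1 have 35.6% and 39.2% of reads at 21 nt, compared with 19.3 to 22.98% in the other 4 samples.

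The lengths of mmu-miR-125a-5p varied as well. Its 23 nt reads made up 39.4% in Tau tg 1 and 16.2% in Tau tg 2, which enclosed the WT range of 24.7 to 27.8%. The mean length of mmu-miR-125a-5p was 22.5 ± 0.0625 nt in WT and 22.5 ± 0.0357 nt in Tau tg (SD, n = 3 each). The exact permutation p of this difference was 0.4. For mmu-miR-125b-5p it was 21.5 ± 0.186 nt and 21.5 ± 0.103 nt, with an exact permutation p of 0.9.

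The 5′ ends, which set the seed, were more uniform. Reads that started at the first base of the RefSeq form made up 96.6 to 98.1% of mmu-miR-125a-5p and 94.7 to 97.8% of mmu-miR-125b-5p. Starts 1 base downstream made up 1.54 to 3.68% of mmu-miR-125b-5p. The leading isoform with this start had a mean of 469 RPM. Its seed is CCUGAG in place of CCCUGA.

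The isoforms of the 3p arms differed from sample to sample. The RefSeq form of mmu-miR-125a-3p held 11.5% of that member, and the leading read was 20 nt long with 28.8%. This 20 nt read had 1.87, 26.4 and 1.84 RPM in WT 1, WT 2 and WT 3 and 29.9, 17.6 and 10.2 RPM in Tau tg 1, Tau tg 2 and Tau tg 3. The RefSeq form was below the level of 3 reads in each WT sample. It stood at 4.84, 11.7 and 15.96 RPM in Tau tg 1, Tau tg 2 and Tau tg 3. Its limma p was 0.0280 unadjusted and 0.584 adjusted. With a WT mean of 0.844 RPM, it reached the mean of 1 RPM needed for testing through the Tau tg samples alone. This p is therefore not evidence of a group difference. For mmu-miR-125b-1-3p, an isoform that starts 1 base upstream had 50.1 RPM in WT 2 and 0 RPM in the other samples. This start moves the seed to ACGGGU.

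Of the 393 member sequences, 232 had a mean of at least 1 RPM and were tested. Among them 8 or 3.45% had an unadjusted p under 0.05, compared with 2.23% of the 36070 sequences tested in all. With edgeR it was 1 of the 232 against 7.11% of all, and with DESeq2 2 of the 232 against 9.27% of all. After adjustment 0 of the 232 passed by limma, compared with 10 or 0.0277% of all sequences. Each of the 8 had a mean under 10 RPM. The 4 that were lower in Tau tg belonged to mmu-miR-125a-5p, and the 4 that were higher belonged to the 3p arms. The higher ones had WT means of only 0.226 to 0.844 RPM, so they passed the filter of 1 RPM through the Tau tg samples alone. The lower ones had Tau tg means of 0 to 2.09 RPM. Because the filter admits sequences through the group where they are high, this split by arm is not evidence of an arm difference. The median log2 difference was −0.66 over 59 isoforms of mmu-miR-125a-5p and −0.20 over 124 of mmu-miR-125b-5p, against −0.16 over all sequences tested. That median over all sequences was not stable. With no filter it was 0.28, with a mean of at least 10 RPM 0.105, without WT 1 0.45 and without Tau tg 3 −0.76. For the 3p arms the median was 0.94 over 9 isoforms of mmu-miR-125a-3p, 0.67 over 31 of mmu-miR-125b-2-3p and 0.16 over 9 of mmu-miR-125b-1-3p. These medians were taken over sequences that passed the same filter, so their split by arm is not evidence of an arm difference either. Isoforms of a member share its hairpin and are not independent.

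The seeds of the family spanned a wide range of 6mer seed viability. This deposited score is the percent of cells that survive a short RNA with that seed, averaged over 3 murine cell lines, so toxic seeds have low values. The 5p seed CCCUGA had a viability of 79.4% and the shifted seed CCUGAG had 75.4%. The 3p seeds were lower, with 63.8% for CAGGUG of mmu-miR-125a-3p, 53.4% for CGGGUU of mmu-miR-125b-1-3p and 37.3% for CAAGUC of mmu-miR-125b-2-3p.

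Reads with the seed CCCUGA summed to 37703, 26546 and 30223 RPM in WT 1, WT 2 and WT 3 and to 23304, 28270.0 and 21493 RPM in Tau tg 1, Tau tg 2 and Tau tg 3. The groups overlapped. The family supplied 98.3 to 98.8% of these reads in each sample. The other miRNA with this seed, mmu-miR-351-5p, had a mean of 19.8 RPM.

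All reads whose seed had a viability of 79.4% or more made up 15.2%, 18.2% and 21.5% of RPM in WT 1, WT 2 and WT 3 and 14.7%, 16.03% and 17.5% in Tau tg 1, Tau tg 2 and Tau tg 3. The 5p members supplied 25.5%, 15.3% and 15.1% of that pool in the WT samples and 15.9%, 18.01% and 12.5% in the Tau tg samples. WT 1 therefore differed from the other 5 samples in how much of its nontoxic pool was miR-125. Among reads with a seed viability under 50%, mmu-miR-125b-2-3p supplied 0.0792 to 0.226%.

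The partners in the miR-125 clusters belong to the let-7 family, which is known for restraining growth and pluripotency genes, and to the miR-99/100 family. Of 12 partner arms tested, 8 had a higher and 4 a lower mean log2 value in Tau tg, and 0 had an unadjusted limma p under 0.05. Their median log2 difference was 0.43, compared with 0.246 over all miRNAs tested. These counts and this median include mmu-let-7a-2-3p, mmu-let-7c-1-3p and mmu-miR-100-3p, which had only 0 to 5 reads in each WT sample.

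At the Mir125a locus, mmu-let-7e-5p had 5972, 3982 and 3592 RPM in WT 1, WT 2 and WT 3 and 4976, 7569 and 5801 RPM in Tau tg 1, Tau tg 2 and Tau tg 3. mmu-miR-99b-5p had means of 1630 ± 730 and 1523 ± 293 RPM (SD, n = 3 each). Both overlapped between the groups. Relative to mmu-miR-125a-5p, mmu-let-7e-5p stood at 0.714 ± 0.257 in WT and 1.37 ± 0.377 in Tau tg (SD, n = 3 each), and WT 1 at 1.011 was above Tau tg 1. The discarded arm mmu-let-7e-3p, like mmu-miR-125a-3p, was higher in every Tau tg sample, with 39.5 ± 8.06 and 62.5 ± 9.34 RPM (SD, n = 3 each) and an adjusted limma p of 0.896. As a share of its own hairpin, however, mmu-let-7e-3p overlapped between the groups, at 0.639 to 1.19% in WT and 0.680 to 1.32% in Tau tg. The discarded arm mmu-miR-99b-3p of this locus overlapped in RPM, at 33.0 to 107.7 RPM in WT and 78.1 to 112.0 RPM in Tau tg.

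At the miR-125b loci, the partners mmu-let-7c-5p and mmu-let-7a-5p were higher relative to mmu-miR-125b-5p in every Tau tg sample. The rare partner mmu-let-7c-1-3p was not, as it stood at 0 RPM in Tau tg 2 and Tau tg 3. mmu-let-7c-5p stood at 1.44, 1.62 and 0.923 times mmu-miR-125b-5p in WT 1, WT 2 and WT 3 and at 2.18, 2.10 and 2.20 times in Tau tg 1, Tau tg 2 and Tau tg 3. mmu-let-7a-5p stood at 0.667, 0.948 and 0.538 times mmu-miR-125b-5p in the WT samples and at 1.04, 1.10 and 1.16 times in the Tau tg samples. In both ratios the Tau tg samples were close together and did not overlap with WT. The same was found for 22 of the 100 other miRNAs with a mean of at least 1000 RPM when divided by mmu-miR-125b-5p, or 22%, these partners included. No test was run on these ratios. mmu-let-7a-5p and mmu-let-7c-5p are also made from other loci, whose reads cannot be separated from those of the clusters. The 3p arms named for the cluster loci were rare. mmu-let-7a-2-3p had 2.34, 1.36 and 0.917 RPM in WT 1, WT 2 and WT 3 and 7.83, 14.2 and 4.09 RPM in Tau tg 1, Tau tg 2 and Tau tg 3. mmu-let-7c-1-3p had 0.468, 0.678 and 2.75 RPM in the WT samples and 5.69, 0 and 0 RPM in the Tau tg samples.

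The miR-99/100 partners overlapped between the groups. mmu-miR-100-5p stood at 0.293 ± 0.162 times mmu-miR-125b-5p in WT and at 0.267 ± 0.0651 times in Tau tg (SD, n = 3 each). mmu-miR-99a-5p had 14991, 9467 and 12333 RPM in WT 1, WT 2 and WT 3 and 16214, 1992 and 8253 RPM in Tau tg 1, Tau tg 2 and Tau tg 3. Tau tg 2 was far below the other samples, at 0.0838 times mmu-miR-125b-5p, while the WT ratios were 0.450 to 0.498. mmu-miR-99a-3p was not low in Tau tg 2, with 68.6 RPM.

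**Figure D4:**
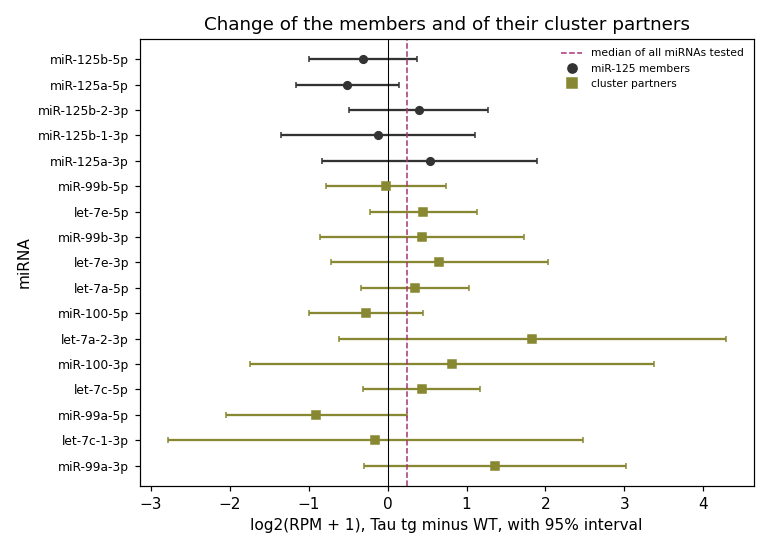
Difference between Tau tg and WT on the log2(RPM + 1) scale with 95% limma intervals, for the 5 members (circles) and 12 cluster partners (squares), with a dashed line at the median of all 689 miRNAs tested (0.246). All intervals of the members include 0. The 5p members and miR-125b-1-3p lie to the left of the dashed line, as do the partners miR-99b-5p, miR-100-5p, miR-99a-5p and let-7c-1-3p.

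Patterns across samples were compared by Pearson correlation of log2(RPM + 1) over the 6 samples with the other 100 miRNAs above a mean of 1000 RPM. The correlations share the libraries, their depth and the group difference, and they serve as a description. mmu-miR-125a-5p was most like mmu-miR-145a-5p (r = 0.833), mmu-miR-124-3p (r = 0.791) and mmu-miR-410-3p (r = 0.782). mmu-miR-125b-5p was most like mmu-miR-342-3p (r = 0.755), mmu-miR-1249-3p (r = 0.694) and mmu-miR-434-3p (r = 0.688). These matches were picked as the highest of the 100 correlations of each member. The 5p members had r = 0.399 with each other. Among the 100 miRNAs compared, mmu-miR-125b-5p came 14th in the order for mmu-miR-125a-5p, and mmu-miR-125a-5p came 19th in that for mmu-miR-125b-5p.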

How the data were processed

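Ago-bound RNA was pulled down with a GW182-derived peptide, selected by size on gels and sequenced on an Illumina HiSeq. The authors processed the reads with the SPOROS pipeline: trimming (Trim Galore, per the submitters' processing notes), a table of unique sequences, removal of rare reads, and a BLAST search against lists of small RNAs. The deposited values are RPM as scaled by the authors. Rare-read removal makes low values incomplete. The viability score per 6mer seed was used as the authors deposited it.

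Of 109434 rows, 44347 were at 0 in every sample and were left out. All values lay within 0.002 RPM plus 0.005% of a whole multiple of 1 read's RPM (100% whole), a tolerance under 0.25 reads for at least 99.3% of values, so reads were recovered, 998248 to 6879551 per sample, and 3 reads corresponded to 0.427 to 2.75 RPM. Rows that averaged 1 RPM or more were tested by limma 3.58.1 (mean-variance trend) on log2(RPM + 1), a scale that understates changes of low rows, with Benjamini-Hochberg adjustment over all rows tested. For shares and sums, an exact permutation test, two-sided, used all 20 assignments of samples to groups. Alternatives were edgeR 4.0.16 and DESeq2 1.42.0 on the recovered reads, other pseudocounts (0.1, 5), filters (none, 10 RPM) and scalings, a replicate block, and fits without each sample. The limma, edgeR and DESeq2 steps were run on simulated counts with a dispersion (spread between replicates beyond counting error) of 0.1. The common dispersion in these data was 0.790 for miRNAs and 4.87 for sequences. The simulation therefore checks that the steps run, and does not show how they perform at the spread of these data. R 4.3.3, Python 3.11.15, pandas 2.3.3 and SciPy 1.17.1 were used.

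Groups and replicate numbers came from the sample titles. The members, marker and partner lists and the naming rule were chosen with earlier results of these data known. The rule named all 5 members and 12 partners, the 5 leading isoforms of each member, isoforms with p under 0.05 and a mean of at least 100 RPM, of which there were none, and 3 miRNAs most like each 5p member. Mature sequences came from RefSeq on GRCm38.p6, where all 5 members matched. Positions came from GENCODE M21. The deposited coordinates refer to mm9 and were not used. The pairs of libraries in a group differed far beyond sampling noise, so each counted as 1 sample.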

Additional observations from a re-analysis of the deposited data

How the results depend on the processing

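All 5 members had an adjusted p above 0.05 under all 16 alternatives. The log2 difference of miR-125a-5p ranged from −0.67 to −0.29 and its unadjusted p from 0.0381 to 0.388, and the smallest difference came without Tau tg 3. miR-125b-5p ranged from −0.54 to −0.12, miR-125a-3p from 0.37 to 0.59 and miR-125b-2-3p from 0.07 to 0.77. Only miR-125b-1-3p turned direction, with a range of −0.67 to 0.16 when single samples were left out (0.16 without WT 1 and 0.13 without WT 2). The count of members with an unadjusted p under 0.05 went from 0 to 1 under median-of-ratios scaling, quantile normalization and DESeq2, where 3.65%, 3.48% and 5.37% of all miRNAs tested had such a p. The count of member isoforms with an unadjusted p under 0.05 went from 8 of 232 (2.23% of all sequences) to 1 with a pseudocount of 5 RPM (1.19% of all), 0 of 61 with a mean of at least 10 RPM (4.28%), 5 after quantile normalization (2.04%), 1 with edgeR (7.11%) and 2 with DESeq2 (9.27%). It was 3 to 8 when single samples were left out, with 3 without Tau tg 3 and 4 without Tau tg 2. With a replicate block it was 5 (2.24% of all), and the block changed no other call. Same-numbered samples had correlations of their deviations of −0.03, −0.11 and 0.11 over 476 miRNAs, so the numbers were not treated as pairs.

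The difference in the 3p share of miR-125a (0.703 percentage points) stayed between 0.552 and 0.882 when single samples were left out. It was 0.703 in reads of 19 to 25 nt, 0.778 in exact runs of the hairpin and 0.653 in sequences above 0 in all 6 samples, an alternative chosen after seeing the data. With a replicate block its exact sign-flip p was 0.25, the smallest that 3 pairs allow. Exact runs were not available for the miR-125b 3p share. Leaving out single samples turned the direction of 10 of the 12 length, start and paralog measures, whose exact permutation p was 0.4 or above over the 6 samples. The ranges in percentage points were −5.11 to 0.442 for the miR-125a-5p share of the 5p members and −0.237 to 13.2 for the miR-125b-2-3p share. For miR-125a-5p they were −1.34 to 2.97 (RefSeq form), −0.0832 to 0.661 (start at base 1) and −2.998 to 1.35 (shorter reads). For miR-125b-5p they were −7.82 to 4.62 (RefSeq form), −1.24 to 0.169 (start at base 1), −4.82 to 8.31 (shorter reads) and −0.563 to 0.473 (longer reads), and −0.0926 to 0.0789 nt for its mean length. Exact runs of the hairpin gave −0.0663 for starts of miR-125a-5p at base 1, −0.00197 for its longer reads and −0.0832 for longer reads of miR-125b-5p. The last was −0.0172 in sequences above 0 in all 6 samples. The causes were not tested.

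Depth limits the rare arms: in WT 3 miR-125a-3p had 49 reads and miR-125b-1-3p had 52.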

Other observations

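A further 117 sequences were assigned to a miR-125 hairpin but to no mature miRNA, and they entered no comparison. They summed to 318 to 555 RPM in the WT samples and to 312 to 457 RPM in the Tau tg samples, or 1.15 to 1.37% and 1.34 to 1.53% of all RPM of the family and these sequences together. Some had the length of the RefSeq miR-125b-5p and differed from it at a single base, with positions counted from 1 at its 5′ end. The most abundant of these was A9G, with a mean of 28.8 RPM and 0.167 to 0.306% of the RefSeq form over the samples. C11T followed with a mean of 23.4 RPM. Their source was not tested.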
